A study of Homo sapiens with 4 samples.

Results

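The genes described here are 9 genes of major histocompatibility complex (MHC) class I antigen presentation: HLA-B, HLA-C, HLA-E, HLA-F, B2M, TAP1, TAP2, TAPBP and NLRC5. They were chosen by gene name, with earlier results of these data known, and all 9 were found among the 18375 genes of the deposited expression table. They were followed in RD cells, an established line of fusion-negative rhabdomyosarcoma with a wild-type genotype label, in 2 libraries of untreated parental cells and 2 of vincristine-resistant cells. Resistant cells were first treated with vincristine, which binds tubulin, at 1 to 1.5 nM, a dose that killed about 80 to 90% of the cells, and the dose was then raised in steps of 10 to 20% over 9 to 12 months until the half-maximal inhibitory concentration had risen at least 100-fold. The sources used here do not say whether the drug was present at harvest, or whether the 2 resistant libraries came from separate selections or cultures, so the p-values below cover no more than library-to-library spread, and that spread may be technical.

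MHC class I molecules show peptides from inside the cell to CD8+ T cells and engage receptors of natural killer cells. A polymorphic heavy chain pairs with the small invariant chain beta-2-microglobulin (B2M) in the endoplasmic reticulum, where tapasin (TAPBP) holds the empty pair next to the TAP1-TAP2 transporter until a peptide binds. NLRC5 is a transcriptional coactivator of the class I genes, and interferons raise most genes of the pathway.

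The libraries held 58861281 to 67690557 recovered reads over the genes of the table, and all 9 genes had at least 10 normalized counts, the minimum used for testing, in every library. A gene was called when its limma p-value, adjusted by the Benjamini-Hochberg method over the 18330 genes tested, was below 0.05. By that rule 66.9% of all genes were called, 32.7% higher and 34.2% lower in resistant cells, so a call by itself does not set a gene apart. The spread behind these tests was small, with an edgeR coefficient of variation between replicates of 2.38%. Of 8 muscle-lineage markers 7 were measured, with a summed level of 88080 to 88348 normalized counts in parental and 148706 to 152967 in resistant cells; DES and CHRNA1 carried most of that difference, and MYOD1 overlapped between groups. Other marker sums moved as well. Of 5 endothelial markers 1 was measured (TEK), at 188 and 210 in parental and 1729 and 1690 in resistant libraries. The 5 epithelial markers, mostly KRT18, summed to 4826 and 4804 in parental and 14722 and 14925 in resistant libraries. Of 5 fibroblast markers 4 were measured, mostly COL3A1, with sums of 714469 and 708342 against 514572 and 509820. Among them COL3A1 was lower in both resistant libraries, but COL1A1 was higher, at 40787 and 40260 against 66962 and 68207. LUM and PDGFRA overlapped between groups. Of 9 immune cell markers 4 were measured, with sums of 82.2 to 93.4 in parental and 116 to 121 in resistant cells. CD68 was lower in both resistant libraries, and CD14, LYZ and CD74, the last also a class II list gene, were higher in both. PTPRC, the pan-leukocyte marker, was not analysed here. The part of these markers in the results was not tested. In bulk RNA, a change in the share of cells that express a gene and a change in RNA per cell cannot be told apart.

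Promoter sequences are shown for 5 of the genes, because the heavy chain genes HLA-B and HLA-C and their partner B2M all rose, and because TAP1 and TAP2, which encode the partner chains of one transporter, moved in opposite directions. Each runs 5′ to 3′ along the gene's own strand, from 250 bases before to 50 bases after a RefSeq start (GRCh38.p14). Capitals mark matches on either strand to the interferon stimulated response element core (GAAANNGAAA), the GAS element (TTCNNNGAA), the X2 box (TGACGC), the CCAAT box (CCAAT) or the kappaB motif, and adjacent or overlapping matches run together.
HLA-B, chr6:31357130-31357429, minus strand: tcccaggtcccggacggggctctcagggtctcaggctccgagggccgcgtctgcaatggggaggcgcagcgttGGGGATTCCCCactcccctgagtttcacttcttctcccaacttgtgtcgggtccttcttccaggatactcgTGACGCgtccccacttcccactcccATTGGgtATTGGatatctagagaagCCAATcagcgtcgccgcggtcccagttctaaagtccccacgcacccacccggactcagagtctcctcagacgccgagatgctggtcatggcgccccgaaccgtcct
HLA-C, chr6:31272043-31272342, minus strand: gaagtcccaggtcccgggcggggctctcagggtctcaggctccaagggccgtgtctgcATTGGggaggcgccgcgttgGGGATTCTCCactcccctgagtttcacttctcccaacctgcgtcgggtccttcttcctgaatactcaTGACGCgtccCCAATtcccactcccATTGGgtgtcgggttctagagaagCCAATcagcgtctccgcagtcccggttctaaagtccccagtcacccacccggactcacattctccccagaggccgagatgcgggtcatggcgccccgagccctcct
B2M, chr15:44711267-44711566, plus strand: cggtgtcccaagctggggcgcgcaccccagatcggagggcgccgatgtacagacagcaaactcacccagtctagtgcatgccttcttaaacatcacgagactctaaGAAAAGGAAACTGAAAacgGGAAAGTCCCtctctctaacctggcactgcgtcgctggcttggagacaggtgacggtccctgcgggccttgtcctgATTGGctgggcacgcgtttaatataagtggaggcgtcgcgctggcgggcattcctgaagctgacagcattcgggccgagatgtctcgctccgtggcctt
TAP1, chr6:32853655-32853954, minus strand: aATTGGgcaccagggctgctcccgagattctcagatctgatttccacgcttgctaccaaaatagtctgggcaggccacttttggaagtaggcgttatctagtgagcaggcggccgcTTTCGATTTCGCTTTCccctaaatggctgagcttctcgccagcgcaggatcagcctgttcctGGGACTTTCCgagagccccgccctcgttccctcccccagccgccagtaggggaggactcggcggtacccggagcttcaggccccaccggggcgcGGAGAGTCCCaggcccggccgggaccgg
TAP2, chr6:32838690-32838989, minus strand: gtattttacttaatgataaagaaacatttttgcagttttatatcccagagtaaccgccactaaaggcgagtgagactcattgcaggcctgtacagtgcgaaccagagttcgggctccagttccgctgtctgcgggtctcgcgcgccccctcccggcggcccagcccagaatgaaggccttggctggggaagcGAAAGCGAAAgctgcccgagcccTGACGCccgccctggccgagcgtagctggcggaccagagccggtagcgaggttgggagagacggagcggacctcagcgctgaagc

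RefSeq promoter windows were at hand for 7 of the 9 genes. A gene counted as matched if any of its windows was, and TAP1 had 2 windows. The percentages of all promoters count each distinct sequence separately. The response element core was matched in 5 of these 7 (HLA-F, B2M, TAP1, TAP2 and TAPBP), among them both the transporter gene that fell and the one that rose, against 3.57% of 34796 promoters of the same length. It was not matched in the HLA-B and HLA-C windows, which says only that these exact letters are not there. An X2 box was matched in 3 (HLA-B, HLA-C and TAP2; 9.10% of all promoters), a CCAAT box in 5 (34.6%), and a kappaB motif in 5 (11.3%). The GAS element was matched in 1 of the 7, in the other RefSeq window of TAP1 at chr6:32852712-32853011, against 7.67% of all promoters. HLA-B and HLA-C shared 88.5% of aligned bases, with the X2 box at -106 and -105 from the start, followed by CCAAT boxes, and HLA-F shared 79.7% with HLA-B. A motif match is a description of the sequence and not a bound site.

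Of the 9 genes, 7 were higher in resistant cells, 1 was lower and 1 did not pass. The 7 that rose were HLA-B, HLA-C, HLA-E, HLA-F, B2M, TAP2 and TAPBP, the gene that fell was TAP1, and NLRC5 did not pass. The median log2 fold change was 0.33 against 0.00427 over all genes tested, for genes chosen with earlier results of these data known. Only HLA-F of the 9 changed by at least 2-fold, while 8.96% of all genes were called higher and 6.57% called lower by that much. In each of the 9 genes the libraries of the groups did not overlap, as in 82.1% of all genes tested (41% higher and 41.1% lower). The authors' deposited table also called 8 of the 9, the same 8 with the same signs, where it called 56.6% of all genes, 27% higher and 29.6% lower. With replicate number as a block the calls of the 9 genes were also 7 higher and 1 lower, beside 66.3% of all genes (32.3% higher and 33.9% lower).

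**Figure D1:**
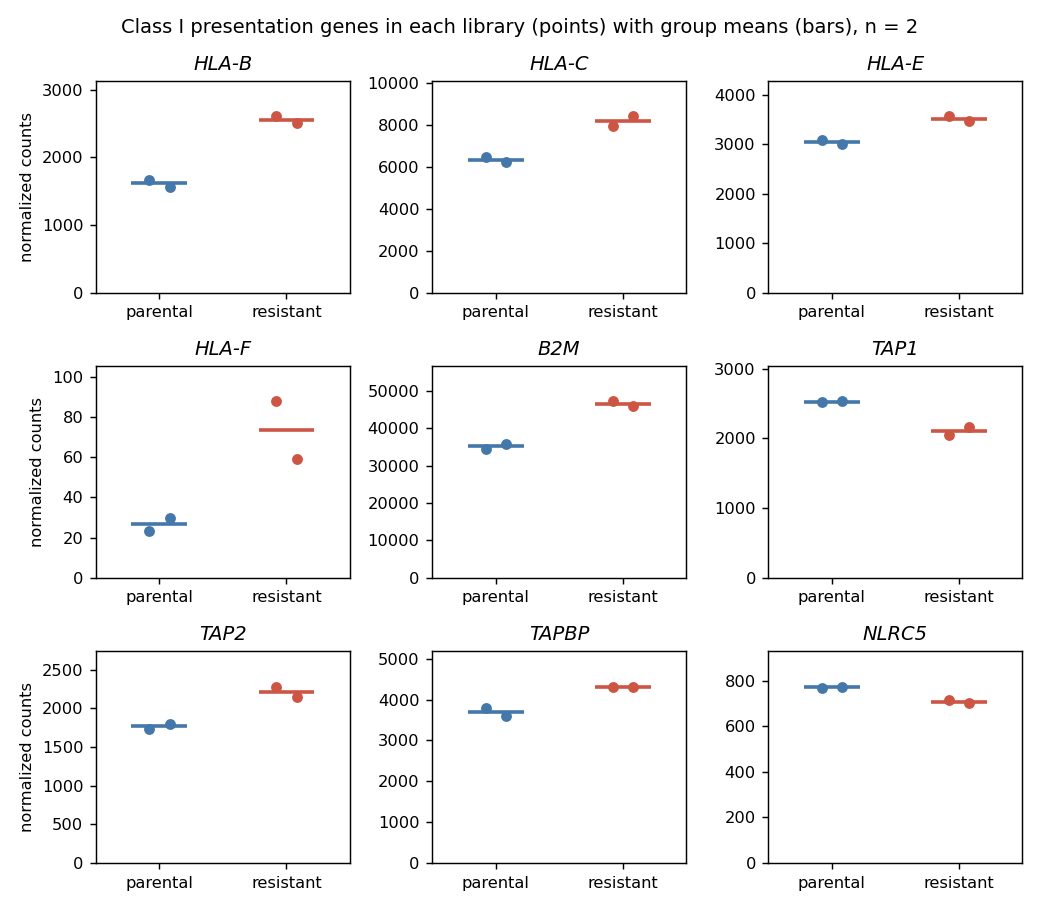
Normalized counts (y axis, from 0) of each of the 9 genes in the 2 parental and 2 resistant libraries, with points for libraries and bars for group means. HLA-B, HLA-C, HLA-E, HLA-F, B2M, TAP2 and TAPBP lie higher in both resistant libraries, and TAP1 and NLRC5 lie lower, the latter without passing the test.

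All 4 heavy chain genes of the group rose, HLA-B by more than HLA-C and HLA-E on intervals that do not overlap. HLA-B encodes a classical heavy chain, and these present peptides to CD8+ T cells. It had 1668 and 1564 normalized counts in the parental and 2607 and 2508 in the resistant libraries, so both resistant values stood well above both parental ones. The group values were 1616 ± 73.5 and 2558 ± 69.5 (SD, n = 2 libraries per group, as throughout), and the log2 fold change was 0.66 (SE 0.05, limma adjusted p = 1.98e-12) or 1.58-fold with a 95% interval of 1.48 to 1.70. Fold changes are on the scale of the normalized count plus a pseudocount of 1, which understates changes of low genes.

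HLA-C, the classical heavy chain gene that serves as the main ligand of inhibitory killer cell immunoglobulin-like receptors, rose less. Its values were 6453 and 6252 in parental and 7958 and 8416 in resistant cells. The 2 resistant libraries differed from each other by more than the parental ones did, but by less than the gap between the groups. The means were 6352 ± 142 and 8187 ± 324. The log2 fold change was 0.37 (SE 0.04, limma adjusted p = 6.72e-10), or 1.29-fold with a 95% interval of 1.23 to 1.35.

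HLA-E presents peptides from the leader sequences of other class I chains to the NKG2A receptor of natural killer cells. It had 3081 and 3003 normalized counts in parental and 3571 and 3478 in resistant cells, with means of 3042 ± 55.1 and 3525 ± 65.5. Both resistant values were higher, by little. The rise of 0.21 on the log2 scale (SE 0.04, limma adjusted p = 4.09e-05), or 1.16-fold, was close to that of TAPBP (0.22). It was not called against a change of 1.2-fold (limma treat, adjusted p = 1), nor with the dispersion fixed at 0.01 in edgeR as an assumed spread between cultures (edgeR adjusted p = 0.238).

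HLA-F, a nonclassical heavy chain that can reach the surface without peptide, was measured from few reads. It had 24 and 30 reads in the parental and 81 and 62 in the resistant libraries, or 23.2 and 29.8 against 87.6 and 59.2 normalized counts (means 26.5 ± 4.68 and 73.4 ± 20.1). Both resistant values were higher, and they differed widely from each other. The log2 fold change was 1.42 (SE 0.26, limma adjusted p = 2.41e-05), and the read ratio was 2.74 with an exact 95% binomial interval of 1.99 to 3.82, which covers counting error only. HLA-F shares 16.1% of its exonic bases with a pseudogene and 12.3% with HLA-F-AS1 on the opposite strand. No strand setting is given in the sources used here, so its level is uncertain. The 20 nearest tested genes had a median log2 fold change of 0.24, and with that subtracted HLA-F came to 1.18.

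B2M encodes the light chain that every class I heavy chain needs, and with 34560 and 35709 normalized counts in parental cells it had the most reads of the 9 genes. It rose to 47156 and 46022, so the gap between groups was far larger than the difference between replicates (means 35134 ± 812 and 46589 ± 802). The log2 fold change was 0.41 (SE 0.03, limma adjusted p = 5.58e-13), or 1.33-fold with a 95% interval of 1.27 to 1.38. Genes around B2M on chromosome 15 were higher as well, with a median log2 fold change of 0.25 over the 20 nearest tested genes. With that median subtracted, the value for B2M was 0.16 and still passed (limma adjusted p = 1.57e-05, taking the median as known).

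**Figure D2:**
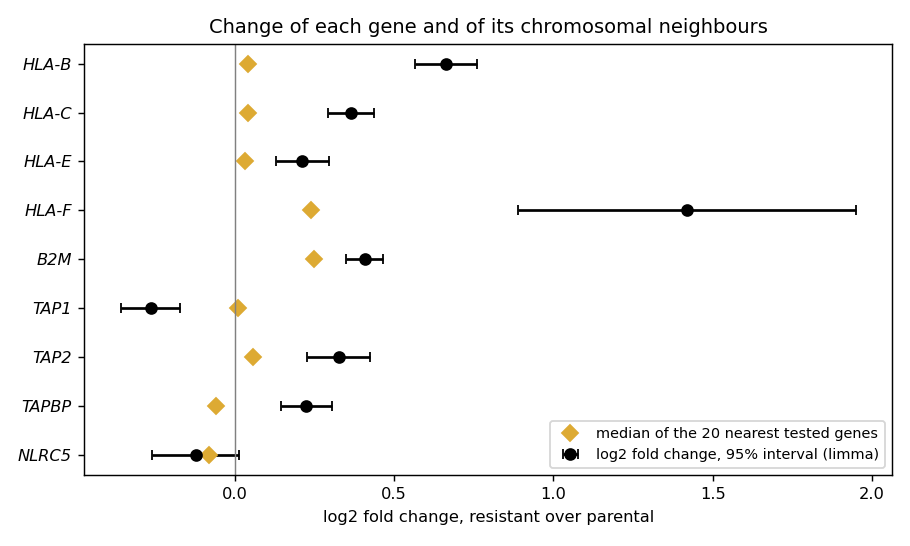
Log2 fold change of each gene (x axis; black points with 95% limma intervals, 2 libraries per group) and the median log2 fold change of its 20 nearest tested genes (diamonds). The intervals of HLA-B, HLA-C, HLA-E, HLA-F, B2M, TAP2 and TAPBP lie above 0 and that of TAP1 below 0, while the interval of NLRC5 includes 0; neighbours of HLA-F and B2M were shifted up by 0.24 and 0.25.

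Taken within libraries, the ratios of HLA-B, HLA-E and HLA-F to B2M did not overlap between groups, while that of HLA-C did. The log2 ratio of HLA-B to B2M rose from -4.37 and -4.51 in parental to -4.18 and -4.20 in resistant libraries, and that of HLA-E fell from -3.49 and -3.57 to -3.72 and -3.73. These 2 ratios did not overlap between groups and moved in opposite directions. The ratio of HLA-C to B2M overlapped between groups, at -2.42 and -2.51 against -2.57 and -2.45, so no difference between the rises of HLA-C and B2M showed beyond the spread of the libraries. HLA-F rose against B2M, from -10.5 and -10.2 to -9.06 and -9.58. These ratios were not tested.

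Per kilobase of merged exons, the share of HLA-B in the sum of HLA-B, HLA-C, HLA-E, HLA-F and HLA-G was 13.1 and 12.7% in parental and 16.2 and 15.2% in resistant libraries. The share of HLA-E went the other way, from 24.8 and 25.03% to 22.7 and 21.7%. Neither of these shares overlapped between groups. HLA-C held the largest share, at 61.6 and 61.8% in parental and 60.1 and 62.2% in resistant libraries, which overlap. HLA-F made up 0.128 and 0.170% in parental and 0.382 and 0.253% in resistant libraries. The summed level per kilobase was 4176 and 4034 in parental and 5282 and 5394 in resistant libraries, while its ratio to B2M per kilobase overlapped between groups, at 0.735 and 0.687 against 0.681 and 0.712. The shares depend on which genes enter the sum and were not tested. Class I heavy chain genes resemble one another and vary between alleles, and the handling of reads with several matches is not given in the sources used here, so the split of reads among these genes is uncertain.

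**Figure D3:**
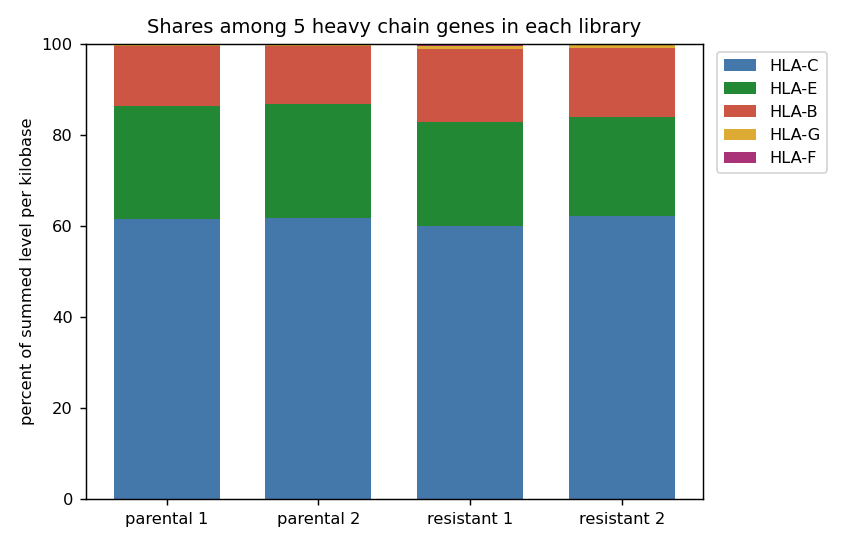
Share of each heavy chain gene (y axis, percent) in the summed level per kilobase of merged exons of 5 genes, in each library; the shares of HLA-F and HLA-G, are hardly visible. HLA-B takes a larger share and HLA-E a smaller one in both resistant libraries, while the shares of HLA-C overlap.

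The transporter genes moved apart. TAP1 encodes one chain of the peptide transporter, which pumps peptides from the cytosol into the endoplasmic reticulum. It had 2528 and 2530 normalized counts in parental and 2053 and 2159 in resistant libraries, with nearly equal parental values and both resistant ones lower (means 2529 ± 1.33 and 2106 ± 75.2). It fell by 0.26 on the log2 scale (SE 0.04, limma adjusted p = 9.28e-06), and its resistant level was 0.832 of the parental one with a 95% interval of 0.781 to 0.887.

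TAP2, the partner chain, rose from 1733 and 1797 to 2281 and 2146, with both resistant values above both parental ones (means 1765 ± 45.2 and 2213 ± 95.7). The log2 fold change was 0.33 (SE 0.05, limma adjusted p = 1.19e-06), or 1.25-fold. Within libraries the log2 ratio of TAP1 to TAP2 was 0.54 and 0.49 in parental and -0.15 and 0.01 in resistant cells, a shift of -0.59, so TAP1 had more normalized counts than TAP2 in parental cells and about as many in resistant ones. With members and listed genes left out, the 20 nearest tested genes had medians of 0.01 around TAP1 and 0.06 around TAP2. Of the listed genes close by, PSMB8 (0.84), PSMB9 (0.90), HLA-DMA (0.41) and HLA-DMB (1.24) were higher. BRD2 (-0.00198), named after its value was seen, did not pass. TAP2 shares 32.3% of its exonic bases with AL669918.1, a gene on the same strand that had 16.2 ± 1.76 and 16.4 ± 4.32 normalized counts.

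TAPBP encodes tapasin, which bridges the transporter and the empty heavy chain. It rose from 3785 and 3596 to 4298 and 4317, with close resistant values and more spread in parental cells (means 3690 ± 134 and 4308 ± 13.6). The log2 fold change was 0.22 (SE 0.04, limma adjusted p = 1.34e-05), or 1.17-fold. None of TAP1, TAP2 and TAPBP was called against a change of 1.2-fold (limma treat adjusted p = 0.827, 0.228 and 1, in that order), or when edgeR's dispersion was set to 0.01 (adjusted p = 0.143, 0.0596 and 0.211). Against 1.2-fold 37.1% of all genes were still called (18.4% higher and 18.6% lower), and with the fixed dispersion 43.3% (22.2% higher and 21.2% lower). Of the 9 genes 4 were called higher and 0 lower under each: HLA-B, HLA-C, HLA-F and B2M.

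PSMB9, an immunoproteasome gene, starts head to head with TAP1, and the RefSeq starts lie 488 bases apart on chromosome 6, at 32854192 and 32853704. PSMB9 rose from 758 and 723 to 1350 and 1412 normalized counts, a log2 fold change of 0.90 (SE 0.06, limma adjusted p = 3.60e-13), whereas TAP1 fell. Their log2 ratio within libraries went from -1.74 and -1.81 to -0.60 and -0.61, a shift of 1.16 against differences of 0.0697 and 0.00889 between replicates. PSMB8-AS1, a long noncoding RNA that shares 9.49% of the exonic bases of TAP1 from the opposite strand, rose from 29.01 ± 9.58 to 60.3 ± 11.1 (log2 fold change 1.06, SE 0.27, limma adjusted p = 0.00115). Reads in the shared bases cannot be assigned to either gene without a strand setting.

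NLRC5, the class I coactivator, was the only one of the 9 genes that did not pass. It had 768 and 774 normalized counts in parental and 714 and 703 in resistant libraries (means 771 ± 4.80 and 708 ± 8.24). Both resistant values were lower, but the log2 fold change of -0.12 (SE 0.07, limma adjusted p = 0.108) had a 95% interval from -0.26 to 0.01. It was not called under any of the 18 alternative settings run, in which 37.1 to 75.7% of all genes were called, and in the authors' deposited table its adjusted p was 0.303.

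Of 23 other regulators of class I transcription, 7 rose, 8 fell and 8 did not pass, with a median log2 fold change of 0.03, shares close to those over all genes (32.7% higher and 34.2% lower). The same shares over all genes stand beside the list counts that follow. The number that fell was 5 without parental replicate 1, and 3 against 1.2-fold and with the fixed dispersion. STAT2, a signal transducer of interferon receptors (0.84, SE 0.04), STAT3, a signal transducer of cytokine receptors (0.53, SE 0.03), and SUZ12, a subunit of the Polycomb repressive complex PRC2 (0.46, SE 0.04), rose, while RELB, a subunit of NF-kappaB, fell by 1.05 on the log2 scale (SE 0.08). Tested neighbours of STAT2 and STAT3 also had high medians, at 0.50 and 0.31, and with these subtracted the genes came to 0.34 and 0.22 and were still called. IRF1, which binds the response element of class I promoters and is named after its values were seen, had 1516 ± 0.629 and 1467 ± 37.4 normalized counts and did not pass. The genes of the NLRC5-binding complex on the X and Y boxes were also named after their values were seen. RFX5 (0.22), RFXAP (0.55) and NFYB (0.38) rose, and RFXANK (-0.10) and NFYA (-0.36) fell. NFYC (0.09), CREB1 (0.03) and ATF1 (-0.07) did not pass. The neighbours of NFYB and RFXANK had medians of 0.50 and -0.37, larger in size than the changes of those genes.

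Interferon receptor and kinase genes showed 3 of 9 higher, close to the share over all genes (32.7%), and 2 lower (34.2% over all genes). The type I receptor genes IFNAR1 (0.50, SE 0.04) and IFNAR2 (0.88, SE 0.07) and the type II receptor gene IFNGR2 (0.20, SE 0.04) rose, and SOCS1, a feedback inhibitor of the receptor kinases, fell by 0.68 on the log2 scale (SE 0.06). IFNAR2 shares 44.2% of its exonic bases with AP000295.1 on the same strand and 39.1% with IL10RB-DT on the opposite strand. Its level is therefore uncertain. The call of IFNGR2 was lost against 1.2-fold and with the fixed dispersion (edgeR adjusted p = 0.279).

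Levels can be compared between genes only per length. Per kilobase of merged exons (GENCODE 29), the parental order was B2M at 5780 normalized counts per kilobase, HLA-C at 2534, HLA-E at 1023, TAPBP at 730, HLA-B at 530 ± 24.1, TAP1 at 526, TAP2 at 276, NLRC5 at 62.3 and HLA-F at 6.11. HLA-B and TAP1 were within the spread of HLA-B. In resistant cells HLA-B, at 838 ± 22.8, stood beside TAPBP at 852 and above TAP1 at 438, and the first of these gaps was within the spread. By group means the order of all 9 genes was the same in both groups. With the length of the principal transcript in place of the merged exons, B2M came to 20607 in parental cells, and TAPBP (1955) stood above HLA-E (1170) and HLA-B (1044).

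The steps before and after the transporter did not move as one. Of 7 immunoproteasome and activator genes, 4 rose, none fell and 3 did not pass. The catalytic subunit genes PSMB8 (0.84, SE 0.05), PSMB9 and PSMB10 (0.28, SE 0.08), which replace the standard subunits under interferon, rose, as did the assembly chaperone gene POMP (0.13, SE 0.04). When parental replicate 1 was left out PSMB10 no longer passed (limma adjusted p = 0.0519), and POMP did not pass when either parental replicate was (limma adjusted p = 0.0539 and 0.0542). All 3 standard catalytic subunit genes fell: PSMB5 by 0.21, PSMB6 by 0.32 and PSMB7 by 0.15 on the log2 scale. All 3 lost their calls against 1.2-fold and with the fixed dispersion, as did PSMB10 and POMP. With the medians of their neighbours subtracted PSMB5 and PSMB6 came to -0.34 and -0.61. PSMB8 shares 20.6% of its exonic bases with PSMB8-AS1 on the opposite strand, and PSMB10 shares 34.8% with AC040162.1 on the same strand. The immunoproteasome and activator list had 2 genes called lower when the medians of their neighbours were subtracted.

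Of 11 genes of peptide trimming and loading, 4 rose, 4 fell and 3 did not pass (median 0.02). These shares were close to those over all genes (32.7% higher and 34.2% lower). Calreticulin, CALR, a lectin chaperone of the loading complex, fell from 116185 ± 1224 to 90084 ± 1921 normalized counts (-0.37, SE 0.03), along with the chaperone gene HSPA5 (-0.29, SE 0.03) and the glycoprotein folding sensor gene UGGT1 (-0.22, SE 0.03). The trimming peptidase gene ERAP2 rose by 0.81 (SE 0.13). Against 1.2-fold and with the fixed dispersion only CALR of the 4 was called lower, and HSPA5 and UGGT1 lost their calls; 2 rather than 4 genes were higher there and without parental replicate 2. With the median of its neighbours (-0.20) subtracted UGGT1 came to -0.02 and was not called. Genes around CALR had a median of -0.44, and with that subtracted CALR was higher, at 0.07 (limma adjusted p = 0.0166).

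Among 7 other class I heavy chain genes and relatives, 2 rose and 5 did not pass, beside 32.7% of all genes higher and 34.2% lower. HFE, which encodes a class I-like regulator of iron uptake that pairs with B2M, had 28.0 and 18.9 normalized counts in parental and 434 and 395 in resistant libraries, a log2 fold change of 4.11 (SE 0.18, limma adjusted p = 6.06e-17). HLA-G, a nonclassical heavy chain of the placenta, rose from 26.1 and 18.9 to 57.4 and 56.3 (1.32, SE 0.27), and 25.8% of its exonic bases overlap a pseudogene on the opposite strand. MR1, which presents vitamin B metabolites, did not pass (-0.09, SE 0.06), but was called lower at -0.43 with the median of its neighbours (0.34) subtracted. HLA-L, a class I pseudogene, did not pass either (-0.26, SE 0.25), and its value was 0.11 when resistant replicate 2 was left out. With a minimum of 50 normalized counts in all libraries 0 genes of this list rose, because HFE and HLA-G were not tested there. When the medians of their neighbours were subtracted, 3 genes of the list were called higher and 1 lower.

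Of 6 class II presentation genes, 5 rose, and HLA-DRA, named after its value was seen, did not pass. HLA-DPB1, a class II beta chain gene, had 33.8 and 22.9 normalized counts in parental and 341 and 346 in resistant libraries (3.58, SE 0.18). HLA-DMB (1.24, SE 0.28) and HLA-DMA (0.41, SE 0.14), which load class II peptides, and the protease gene CTSS (0.70, SE 0.05) rose too. HLA-DMA no longer passed when parental replicate 2 was left out (limma adjusted p = 0.111), and DESeq2 did not call it (adjusted p = 0.0970), nor was it called against 1.2-fold or with the fixed dispersion. The number of class II genes that rose was 3 under DESeq2 and against 1.2-fold, and 2 with a minimum of 50 normalized counts in all libraries. HLA-DRA, HLA-DPB1, HLA-DMB and CD74 were below that minimum in parental cells and were not tested there. The 2 genes that were tested there, HLA-DMA and CTSS, were both called. Over all genes 27.1% were called higher under DESeq2, 18.4% against 1.2-fold and 34.6% with that minimum.

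Of 11 genes of natural killer and T cell ligands, 7 fell, 1 rose and 3 did not pass (median -0.42). Ligands of the activating receptors NKG2D, ULBP2 (-1.10, SE 0.19) and ULBP3 (-0.42, SE 0.08), and DNAM-1, PVR (-0.66, SE 0.03) and NECTIN2 (-0.56, SE 0.04), fell. The NKG2D ligand genes MICA (2298 ± 89.6 and 2255 ± 81.4 normalized counts, -0.03) and MICB (-0.28) did not pass; both are outside the naming rule and were picked with values in view. The gene that rose was CD274, which encodes PD-L1, from 20.1 ± 1.09 to 48.2 ± 0.685 normalized counts, whereas PDCD1LG2, the gene of the other PD-1 ligand, fell from 51.0 ± 2.39 to 25.3 ± 10.1, both also named after their values were seen. The number that fell was 4 with a minimum of 50 normalized counts in all libraries, because ULBP2, PDCD1LG2 and another of the 7 were not tested there. CD274 was not tested there, and 2 genes rose without resistant replicate 1. Of 9 genes of heavy chain turnover and quality control, 6 fell and 3 did not pass. HM13, a signal peptide peptidase that helps to make the HLA-E leader peptides, fell by 0.79 (SE 0.03), and IRGQ, SYVN1 and RNF5 by 0.69, 0.29 and 0.29. SYVN1 and RNF5 lost their calls against 1.2-fold and with the fixed dispersion, where 2 of the list were lower. With the medians of their neighbours subtracted the values were -0.44 for HM13, -0.27 for IRGQ, -0.14 for SYVN1 and -0.47 for RNF5, all still called.

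**Figure D4:**
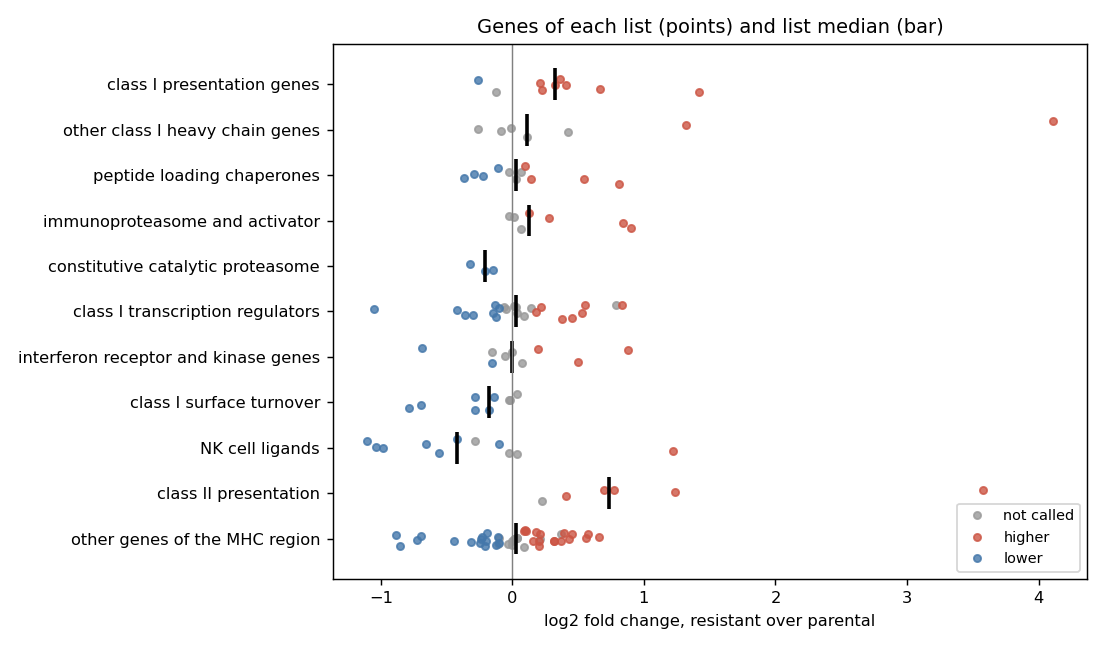
Log2 fold change (x axis) of each measured gene of the class I presentation genes and of the 10 related lists, coloured by call, with the list median as a bar. Class I presentation genes centre at 0.33, class II genes at 0.74 and natural killer cell ligands at -0.42.

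Of the 9 genes 7 lie on chromosome 6 within the MHC: HLA-F from 29722775 to 29738528, HLA-E from 30489467 to 30494205, HLA-C from 31268749 to 31272130, HLA-B from 31269491 to 31357188, TAP2 from 32821833 to 32838780, TAP1 from 32845209 to 32853978 and TAPBP from 33299694 to 33314387 (GENCODE 29, GRCh38). B2M lies on chromosome 15 from 44711487 to 44718877 and NLRC5 on chromosome 16 from 56989485 to 57083531. The annotated span of HLA-B overlaps that of HLA-C in part, and the exons of the pair share 35 bases, 1.15% of those of HLA-B. A pseudogene on the opposite strand overlaps 17.8% of the exonic bases of HLA-B. Between HLA-F and TAPBP 116 other genes were tested, of which 36 rose, 34 fell and 46 did not pass, with a median log2 fold change of 0.06. CLIC1 (-0.70) and HSPA1B (-0.72) fell and ATF6B (0.66) and RPS18 (0.46) rose among a list of other genes in the region, where 17 of 44 rose and 15 fell. Over all genes tested 32.7% were higher and 34.2% lower, so these counts do not set the region apart.

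**Figure D5:**
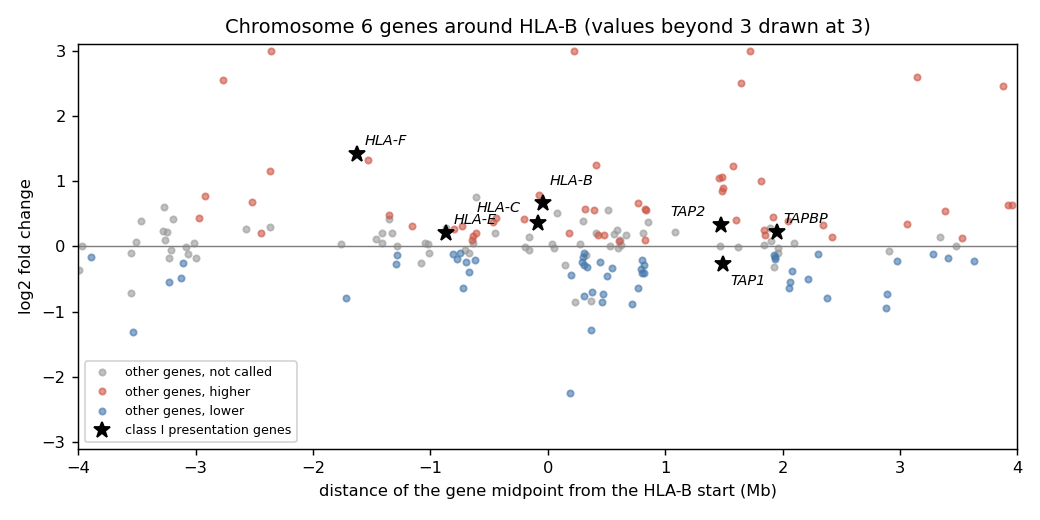
Log2 fold change (y axis) of tested chromosome 6 genes within 4 Mb of the HLA-B start, against distance from it (x axis, Mb); stars are class I presentation genes. Other genes of the region lie on both sides of 0, and 3 genes with values beyond 3 are drawn at 3.

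The 5 genes whose centred log2 profile over the 4 libraries was nearest to the median profile of the 9 genes, among 8721 genes with a mean of at least 1000 normalized counts, were IFT81, TBK1, MAGEA11, RDH11 and NCL. Their Euclidean distances were 0.0255 to 0.0262, and their log2 fold changes 0.27 to 0.29. With 4 libraries in 2 groups, such likeness rests mainly on the size of one difference.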

How the data were processed

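Poly(A)-selected RNA of 4 RD libraries was sequenced. The submitters' processing notes name bcl2fastq 2.17, STAR 2.5.2b, featureCounts of Subread 1.5.2, DESeq2 and build GRCh38. The sources used here give neither the annotation nor the strand setting. The deposited library columns hold a normalized signal: within each library 100% of values were whole multiples of 1 step (tolerance 0.01), which gave back whole reads, so the count of each gene had been divided by a factor common to its library. The log2 fold changes and p-values deposited by the authors are, per the file headers, those of their own comparison.

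Members and gene lists were chosen with earlier results of these data known. Genes with at least 10 normalized counts in at least 2 libraries were kept (18330), and log2 of the value plus 1 was fitted with limma 3.58.1 (eBayes with intensity trend; group as the only term), and p-values were adjusted by Benjamini-Hochberg across every tested gene (threshold 0.05). edgeR 4.0.16 (quasi-likelihood, 12367 genes called) and DESeq2 1.42.0 on recovered reads were alternatives, in R 4.3.3, and the fit was tested on simulated data. Named genes are the members, all genes of lists with 5 or fewer measured genes, otherwise the 4 with the smallest adjusted p, the 5 nearest profiles, and tested genes overlapping a member's exons; others are marked. Neighbours are the 20 nearest tested genes, members and listed genes left out. Some list genes are not reported here, and list counts leave them out. GENCODE 29 holds 96.9% of the identifiers. The 2 libraries of a group differed by more than sampling noise (chi-square per gene 1.61 and 4.04).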

Additional observations from a re-analysis of the deposited data

How the results depend on the processing

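The directions of all 9 genes held under every one of the 18 alternatives in which they were tested, and HLA-B, HLA-C, HLA-F and B2M kept their calls in each; HLA-F, below 50 normalized counts in parental cells, was not tested with a minimum of 50 in all libraries. Log2 fold changes ranged from 0.62 to 0.71 for HLA-B, 0.33 to 0.41 for HLA-C, 0.18 to 0.25 for HLA-E, 1.14 to 1.70 for HLA-F, 0.16 to 0.44 for B2M, -0.30 to -0.23 for TAP1, 0.27 to 0.37 for TAP2, 0.19 to 0.28 for TAPBP and -0.13 to -0.04 for NLRC5. Apart from HLA-F with that minimum, the counts of the 9 genes fell in 2 settings. With a change above 1.2-fold required, 4 of the 9 genes were called higher and 0 lower, as were 3380 and 3414 of all genes and 23 and 17 list genes. With the dispersion fixed at 0.01 the counts were 4 and 0 of the 9, 25 and 18 list genes, and 3880 lower genes overall. By construction the first asks for a larger change and the second assumes a larger spread. Replicate numbers did not pair the libraries (correlation of deviations -0.0296), and with replicate number as a block 7 genes were higher and 1 lower, with 5926 higher and 6218 lower genes overall. Among named list genes, CALR changed sign with the neighbour median subtracted (0.0734) and HLA-L, not called in either case, when resistant replicate 2 was left out (leave-one-out range -0.635 to 0.114); the cause was not tested. Scaling to the same total shifted the median of all genes from 0.00427 to 0.037. Depth limits genes with few reads, such as HLA-F.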
